A study of Homo sapiens with 4 samples.

Results

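The 40 genes described here act in mitosis. They code for the cyclins and phosphatases of mitotic entry, the mitotic kinases, the spindle checkpoint, the chromosomal passenger complex, the kinetochore, the spindle motors, the anaphase machinery, a pair of transcription factors of the G2/M programme, and TOP2A and MKI67. The rule that picks them uses names alone, as gene symbols that equal an entry of a fixed list, and no measured value. The list itself was chosen with earlier results of these data known. All 40 were found among the 25268 gene symbols of the expression table, and all 40 were among the 11147 genes tested, those whose FPKM averaged 1 or more in the 4 libraries. FPKM counts sequenced fragments relative to transcript length and to the depth of the library, so levels of different genes can be compared.

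RNA-seq was made from SK-MEL-28, an established human melanoma cell line, kept in medium with G418. The vector line carried the empty pTRIPZ lentiviral vector, and the MYC-inducible line, called the MYC line here, carried a MYC gene behind a Tet-inducible promoter, which Dox switches on. Each line was grown without doxycycline (Dox) and with Dox for 54 h, which gives 4 conditions with 1 library each. Whether each line was a pool or a single clone is not given in the sources used here, and no condition has a replicate library, so differences have no replicate check and were not tested.

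In a dividing cell, cyclin B with the kinase CDK1 starts mitosis, and the kinetochores built on each centromere bind the spindle microtubules. Kinetochores that are not attached let MAD2 and BUBR1 hold CDC20, the activator of the anaphase-promoting complex (APC/C), and this is the spindle checkpoint. Once all are attached, the APC/C marks cyclin B and securin for degradation and the sister chromatids part. Transcripts of many of these genes peak in G2 and mitosis through promoter elements that the MuvB complex, B-MYB, FOXM1 and NF-Y use, and their levels are commonly read as a sign of how many cells divide. In bulk RNA, fewer cells in mitosis and less RNA per cell cannot be told apart.

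The promoters show what many of these genes share beyond their role. The RefSeq promoter windows (GRCh38.p14) covered 33 of the 40 genes, and the 250 bases before each start site were searched on both strands for 4 motifs, none of which contains another. The CHR element (TTTGAA, with its variant TTCGAA), which MuvB binds, was in the windows of 18 of the 33 genes (54.5%), against 17.2% of the 27305 genes with a window and 13.2% of the 8381 of them that were among the genes tested. The CCAAT box, the site of NF-Y, was in 26 of the 33 (78.8%) against 37% of all genes with a window and 42.5% of the tested ones. Both were found in 16 of the 33 (48.5%) against 7.38% of all genes with a window. A gene counted if any of its windows held an element, so both elements need not lie in the same window. The share with both among the tested genes was not calculated. The E-box CACGTG, the letters that MYC with MAX binds, was in 6 (18.2%), namely CCNB1, PLK1, CENPE, CENPF, ANLN and MYBL2, against 7.73% of all and 11.8% of the tested genes. The letters of an E2F site, searched as TTTGGCGC and as TTTCCCGC, were in 1, CENPA (3.03%), against 2.36% of all and 4.18% of the tested genes. These matches describe letters in a window and not bound sites, and AURKA, BUB3, TTK, BIRC5, TPX2, UBE2C and FOXM1 had no window.

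The 3 genes with the highest mean FPKM among those with both elements were taken. Their upstream sequences, in which the order of the elements differs, are shown with that of SPC24 beside them. Each was found by an exact match in GRCh37, the build of the expression table, runs 5′ to 3′ on the strand of the gene, and leaves out annotated exon bases. Capitals mark CHR elements, including TTCAAA on the reverse strand, and CCAAT boxes, including ATTGG on the reverse strand. The sequence of CDC20, at chr1:43824402-43824651 on the plus strand, reaches the start site and holds 2 CHR elements and 2 CCAAT boxes. That of CDK1, at chr10:62537839-62538088 on the plus strand, also reaches a start site and holds 1 of each. It is just 1 of the windows of CDK1, and up to 2 of each element were found in others. That of CDC25B, at chr20:3776707-3776937 on the plus strand, ends 19 bases before a start site and holds 1 of each. SPC24, at chr19:11266484-11266708 on the minus strand, is shown because its change with Dox was the lowest of the 40, so it was chosen after its values were seen. Its sequence ends 25 bases before the start site and holds 3 CCAAT boxes and no CHR element.
CDC20: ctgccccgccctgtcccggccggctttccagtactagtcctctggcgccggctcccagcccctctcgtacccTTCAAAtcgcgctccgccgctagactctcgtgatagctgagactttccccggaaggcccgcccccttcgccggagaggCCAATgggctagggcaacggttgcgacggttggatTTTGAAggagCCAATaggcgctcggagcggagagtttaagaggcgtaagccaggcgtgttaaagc
CDK1: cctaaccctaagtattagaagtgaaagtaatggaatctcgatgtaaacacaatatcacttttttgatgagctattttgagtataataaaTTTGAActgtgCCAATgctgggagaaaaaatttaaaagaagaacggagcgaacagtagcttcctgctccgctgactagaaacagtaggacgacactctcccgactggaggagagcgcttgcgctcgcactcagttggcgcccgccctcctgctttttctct
CDC25B: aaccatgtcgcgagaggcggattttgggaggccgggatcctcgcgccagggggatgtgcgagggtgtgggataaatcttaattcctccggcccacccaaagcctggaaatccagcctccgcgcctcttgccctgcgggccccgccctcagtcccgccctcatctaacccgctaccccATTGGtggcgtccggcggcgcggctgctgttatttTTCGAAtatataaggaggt
SPC24: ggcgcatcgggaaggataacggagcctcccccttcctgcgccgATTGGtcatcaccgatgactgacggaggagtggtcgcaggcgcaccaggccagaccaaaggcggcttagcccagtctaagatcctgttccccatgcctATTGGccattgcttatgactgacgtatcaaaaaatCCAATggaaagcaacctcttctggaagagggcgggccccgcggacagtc

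The 4 libraries were of like depth. Their FPKM sums lay between 692146 and 715495, and the steps of the lowest values gave approximately 34900000 to 41900000 fragments per library. MYC itself was at 58.3 and 54.8 FPKM in the vector line without and with Dox, and at 76.5 and 87.1 FPKM in the MYC line without and with Dox. The MYC line was higher without Dox too, and the log2 change with Dox was 0.19 in that line and -0.088 in the vector line. For the MYC-inducible cells, the paper reports more MYC mRNA with Dox by RT-PCR, and higher activity of an E-box reporter. How fully the FPKM values count transcripts of the introduced MYC gene was not tested, so they do not measure the strength of the induction. All 6 melanocyte markers checked (PMEL, MLANA, TYR, DCT, MITF and SOX10) were well above 0 in every library, from 61.9 FPKM for DCT to 6227 FPKM for PMEL. All 6 were lower with Dox in the MYC line, where 46.8% of all genes tested were higher. Their log2 changes there ran from -0.30 for SOX10 to -0.86 for PMEL. In the vector line they ran from -0.29 for DCT to 0.052 for MITF. The part of these markers in the results on the mitosis genes was not tested.

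Over all 40 genes, mitosis transcripts differed little between the 4 conditions. In the MYC line, the median log2 change with Dox, the difference of log2(FPKM + 0.1) between the libraries with and without Dox, was 0.031 for the 40 genes and -0.028 for all 11147 genes tested. It turned to -0.017 for the 40 genes when the libraries were rescaled to the same FPKM sum, so no direction is given for the group. Single genes ranged from -0.42 for SPC24 to 0.53 for MAD2L1. No gene of the 40 was past 1.5-fold with Dox in the MYC line, where 5.9% of all genes tested were past 1.5-fold upwards and 8.85% downwards. In the vector line the median was 0.041, and again 0 of 40 passed, where 0.709% of all genes were past 1.5-fold upwards and 0.44% downwards.

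**Figure D1:**
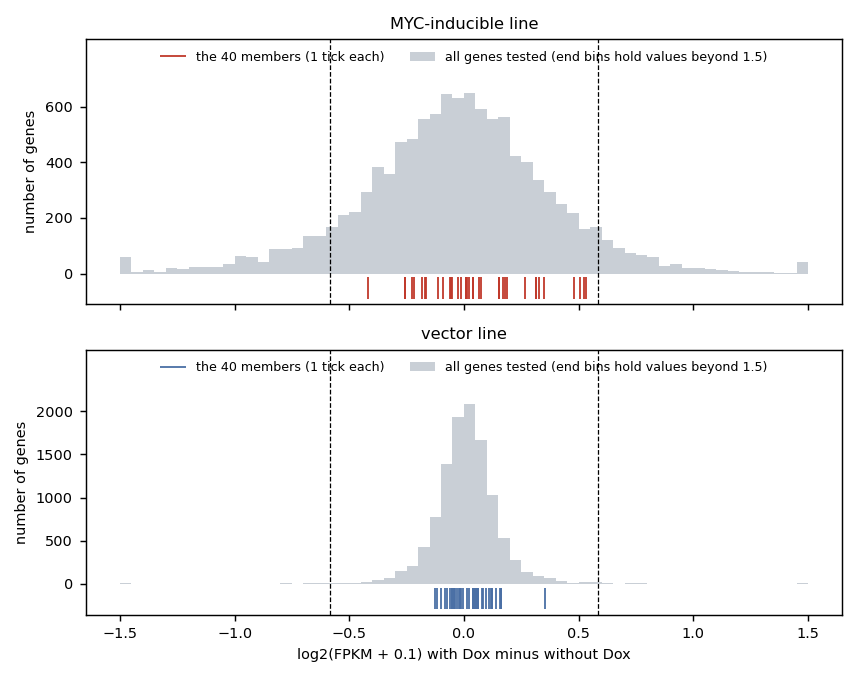
Log2 change with Dox (horizontal axis, log2 of FPKM + 0.1) for all 11147 genes tested (grey bars, number of genes per bin on the vertical axis) and for the 40 mitosis genes (coloured ticks) in the MYC line (top) and the vector line (bottom). Dashed lines mark 1.5-fold, and all 40 ticks lie between them in both lines, spread from -0.42 to 0.53 in the MYC line and from -0.13 to 0.35 in the vector line.

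At a smaller threshold, a log2 change of 0.32 in either direction, 7 of the 40 genes passed in the MYC line. CCNA2, PLK1, BUB1B, MAD2L1, BIRC5 and CDC20 were higher with Dox, 6 of 40 where 16.9% of all genes tested were, and SPC24 was lower, 1 of 40 where 21.4% were. The other 33 genes (82.5%) stayed within it, against 61.7% of all genes. The middle of the distribution was also narrower, with a robust SD (from the median absolute deviation) of 0.21 over the 40 genes and 0.36 over all genes. These comparisons were not matched for level. By mean FPKM, CENPA, number 20 of the 40, was within the highest 25.7% of all genes tested. In the vector line 1 of 40, CDC20, was past it upwards, where 2.36% of all genes were, and 0 of 40 downwards, where 1.72% were.

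The direction alone was mixed. With Dox, 25 of 40 genes were higher in the MYC line, where 46.8% of all genes were, and 23 of 40 in the vector line, where 54.2% were. Rescaling to the same sum brought the count in the MYC line to 17, where 41.4% of all genes were higher, the median ratio to 26, where 49.3% were, and the upper quartile to 22, where 45.5% were. The MYC line library with Dox held the highest of the 4 values for 22 of the 40 genes, where it did so for 40.2% of all genes, and the lowest for 9 of 40, where it did so for 42.9%. An approximate counting error, which comes from the number of fragments alone and leaves out how cultures vary, could be given for 10082 genes. The 95% interval from this error excluded 0 for 25 of 40 genes in the MYC line, where 73.4% of these 10082 genes were, and 17 of 40 in the vector line, where 31.5% were. Opposite signs in the 2 lines, with both intervals clear of 0, were found for 4 of 40 genes, CCNB1, BUB3, MAD2L1 and SPC24, where 10.4% of the 10082 genes had them. The vector line interval of CCNB1 ended close to 0, at -0.0012.

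**Figure D2:**
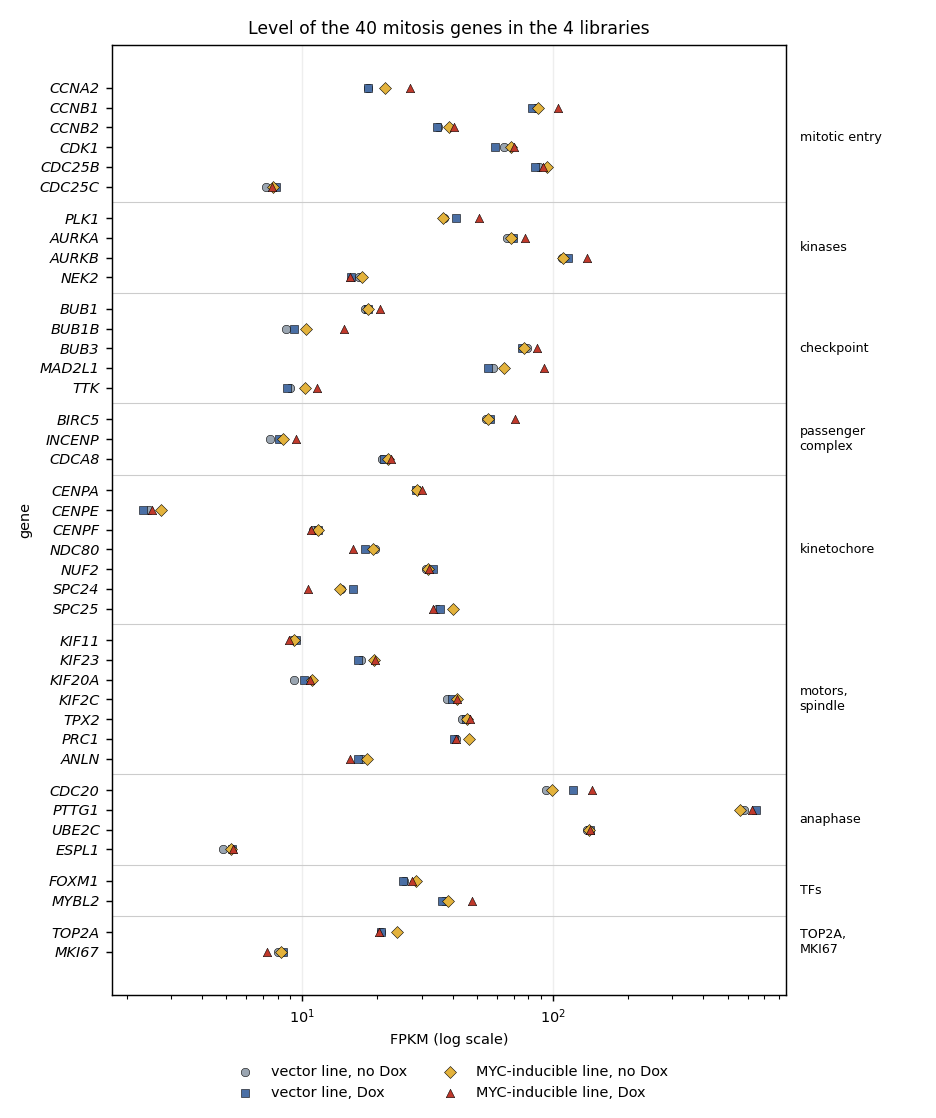
Level of each of the 40 genes (vertical axis, grouped by role) in FPKM on a log scale (horizontal axis) in the 4 libraries, 1 point per library. The points of many genes overlap, while the triangle of the MYC line with Dox stands to the right for MAD2L1, BUB1B and PLK1 and to the left for SPC24.

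The levels of the 40 genes ranged widely. The highest mean over the 4 libraries was that of PTTG1, securin, at 602 FPKM, followed by UBE2C at 139.9 FPKM, AURKB at 118 FPKM and CDC20 at 114 FPKM. The lowest was that of CENPE at 2.51 FPKM, and ESPL1, the protease separase that securin holds inactive, was next at 5.15 FPKM. With PTTG1 the 40 genes summed to 2005 FPKM and 2109 FPKM in the vector line without and with Dox, and to 2060 FPKM and 2289 FPKM in the MYC line. Without PTTG1 the sums were 1427, 1463, 1500 and 1665 FPKM in the same order.

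Below, the 4 values of a gene are given in the same order: the vector line without Dox, the vector line with Dox, the MYC line without Dox and the MYC line with Dox. Log2 changes are with Dox minus without Dox in the line named, and the ± beside them is the approximate counting error. That error uses an annotated transcript length, which may differ from the one behind the FPKM values.

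Among the genes of mitotic entry, the cyclins CCNA2 and CCNB1 were higher with Dox in the MYC line and CDK1, their kinase, was almost level. CCNA2, cyclin A2, was at 18.3, 18.4, 21.4 and 26.9 FPKM. CCNB1, cyclin B1, was at 85.98, 82.96, 87.5 and 105 FPKM. In both cases the MYC line library with Dox was the highest and the vector libraries lay close together. The log2 change in the MYC line was 0.33 ± 0.04 for CCNA2 and 0.27 ± 0.023 for CCNB1, against 0.012 ± 0.047 and -0.052 ± 0.026 in the vector line. For CCNA2 the MYC line was already higher without Dox, by 0.23 on the log2 scale.

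CCNB2, cyclin B2, was at 34.9, 34.5, 38.7 and 40.5 FPKM, and CDK1 at 63.97, 58.9, 68.04 and 69.9 FPKM. Both were somewhat higher in the MYC line than in the vector line, with and without Dox. CDC25B, a phosphatase that activates CDK1, was at 88.1, 84.9, 95.3 and 91.9 FPKM, and its relative CDC25C at 7.19, 7.85, 7.66 and 7.59 FPKM. The log2 changes of these 4 genes in the MYC line lay between -0.052 ± 0.019 for CDC25B and 0.067 ± 0.042 for CCNB2. The median change of the 6 entry genes was 0.053 in the MYC line and -0.034 in the vector line. Of the exon bases of CCNA2, 9.24% are shared with EXOSC9, and of those of CDC25C, 8.80% with FAM53C, both on the opposite strand.

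Of the 4 mitotic kinases, PLK1, AURKB and AURKA were higher with Dox in the MYC line, and NEK2 was not. PLK1, which acts in mitotic entry, centrosome maturation and chromosome alignment, was at 36.9, 41.3, 36.4 and 50.9 FPKM. AURKB, the kinase of the chromosomal passenger complex, was at 109, 115, 110.5 and 138 FPKM. AURKA, the centrosome and spindle kinase, was at 65.9, 69.8, 68.4 and 77.9 FPKM. Each had its highest value in the MYC line with Dox, followed by the vector line with Dox, so Dox went with a higher value in both lines. The log2 changes in the MYC line were 0.48 ± 0.033 for PLK1, 0.32 ± 0.026 for AURKB and 0.19 ± 0.026 for AURKA. In the vector line they were 0.16 ± 0.037, 0.081 ± 0.029 and 0.083 ± 0.029, so the excess of the MYC line was 0.32, 0.23 and 0.10. NEK2, a kinase of centrosome separation, was at 16.9, 15.8, 17.4 and 15.5 FPKM, lower with Dox in both lines. Of the exon bases of PLK1, 11.6% are shared with a noncoding RNA gene on the opposite strand, and whether the counting used strand is not given in the sources used here.

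In the MYC line the 5 spindle checkpoint genes among the 40 all had higher values with Dox than without. This held under each of the 4 scalings tried, where 41.4% to 49.3% of all genes were higher. Each of the 5 had its highest of the 4 values in the MYC line with Dox, where 40.2% of all genes did. Checkpoint genes outside the 40 were mixed, with MAD1L1 lower (-0.12) and TRIP13 higher (0.46). Of 32 other kinetochore and checkpoint genes, 13 were higher without rescaling, where 46.8% of all genes were. MAD2L1 codes for MAD2, the protein that changes shape at an unattached kinetochore and binds CDC20. It lies on chromosome 4 (GRCh37, 120976778 to 120988013) and was at 57.9, 55.04, 63.9 and 92.6 FPKM. The library with Dox of the MYC line stood well above the other 3, and the other 3 lay close together. Its log2 change was 0.53 ± 0.016 in the MYC line, a 1.45-fold difference, and -0.072 ± 0.02 in the vector line. The difference between the 2 changes, 0.61 ± 0.025, was past 1.5-fold, and MAD2L1 was 1 of 40 genes in that class, where 15.6% of all genes tested were.

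BUB1B codes for BUBR1, the checkpoint protein that holds CDC20 together with MAD2 and BUB3, and lies on chromosome 15 (40453224 to 40513324). It was at 8.62, 9.30, 10.4 and 14.8 FPKM, so the MYC line was higher without Dox as well, by 0.26 on the log2 scale. Its log2 change was 0.51 ± 0.048 in the MYC line, a 1.42-fold difference, and 0.11 ± 0.059 in the vector line. Of its exon bases, 5.38% are shared with the neighbouring gene PAK6 on the same strand. BUB3, its partner, was far more abundant at 79.1, 75.8, 76.9 and 86.96 FPKM. The level of BUB1B per BUB3 was 0.109 and 0.123 in the vector line and 0.135 and 0.170 in the MYC line, without and with Dox.

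BUB1, the kinase that marks the inner centromere, was at 17.9, 18.4, 18.4 and 20.4 FPKM. TTK, also named MPS1, the kinase that starts checkpoint signalling at the kinetochore, was at 8.97, 8.73, 10.3 and 11.5 FPKM. Neither passed the smaller threshold in the MYC line, where 61.7% of all genes stayed within it. Their log2 changes in that line were 0.15 ± 0.038 for BUB1 and 0.15 ± 0.056 for TTK. The median change of the 5 checkpoint genes was 0.18 in the MYC line and -0.040 in the vector line.

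**Figure D3:**
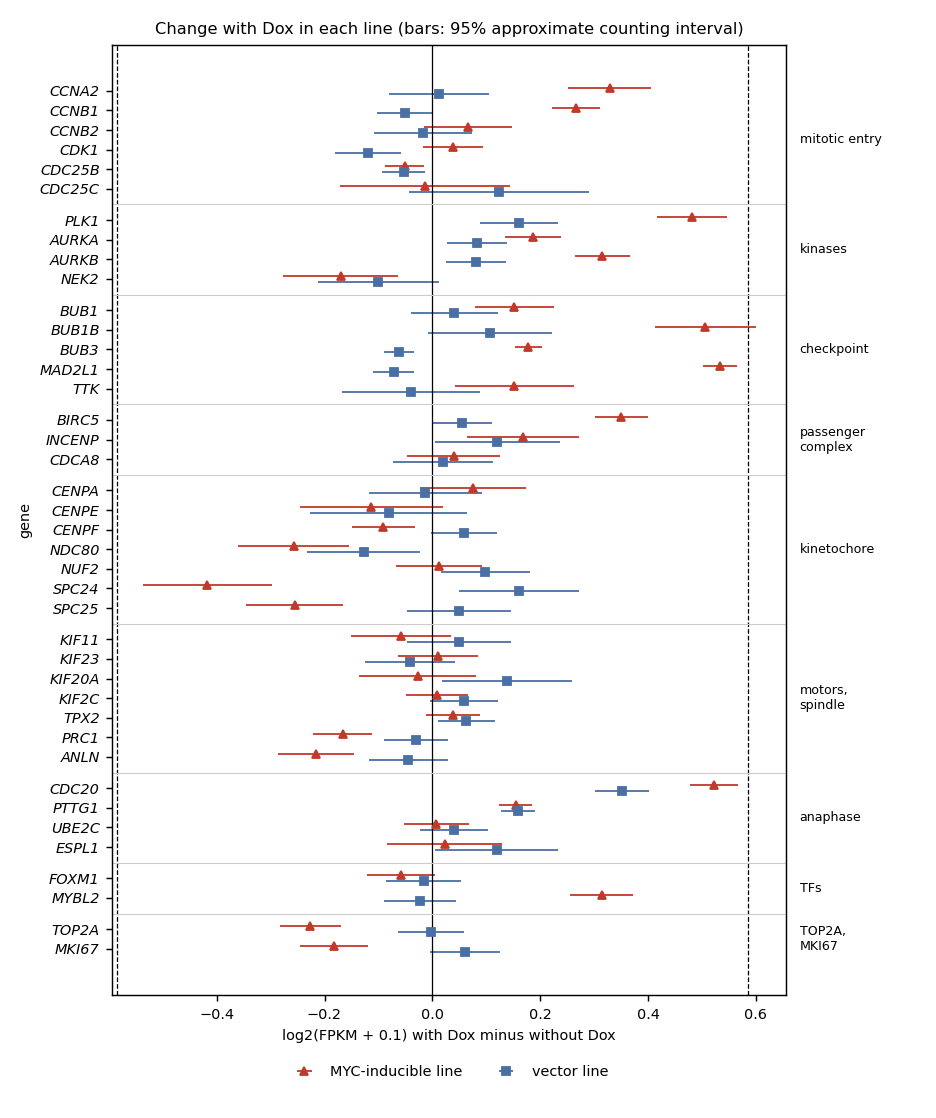
Log2 change with Dox (horizontal axis, log2 of FPKM + 0.1) of each of the 40 genes (vertical axis, grouped by role) in the MYC line (red triangles) and the vector line (blue squares), 1 library against 1. Bars are 95% intervals of the approximate counting error only and dashed lines mark 1.5-fold. MAD2L1 (0.53 against -0.072) and SPC24 (-0.42 against 0.16) have the widest gaps between the lines, while CDC20 is high in both (0.52 and 0.35).

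The chromosomal passenger complex joins AURKB to INCENP, survivin and borealin and corrects faulty attachments. BIRC5, survivin, was at 54.04, 56.2, 55.4 and 70.7 FPKM, with 3 libraries close together and the MYC line library with Dox above them. INCENP, the scaffold, was at 7.44, 8.09, 8.43 and 9.48 FPKM, with the vector line without Dox lowest. CDCA8, borealin, was at 20.9, 21.2, 21.99 and 22.6 FPKM, nearly the same in all 4. The log2 changes in the MYC line were 0.35 ± 0.025 for BIRC5, 0.17 ± 0.053 for INCENP and 0.039 ± 0.044 for CDCA8, the last of which turned to -0.0084 with libraries rescaled to the same sum. In the vector line they were 0.055 ± 0.028, 0.12 ± 0.06 and 0.020 ± 0.048. Subunit transcripts were unequal in level, with INCENP at 0.0685 to 0.0763 of AURKB in all 4 libraries.

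Of the 7 kinetochore genes, 2 were higher and 5 lower with Dox in the MYC line, where 46.8% of all genes were higher. With libraries rescaled to the same sum 1 of 7 was higher, where 41.4% of all genes were. The group had a median change of -0.11 against 0.049 in the vector line. The NDC80 complex, the rod that grips the microtubule, has 4 subunits, and 3 of them had the lowest changes of this group. SPC24, on chromosome 19 (11242196 to 11266483), was at 14.3, 16.02, 14.2 and 10.6 FPKM. SPC25, its partner at the centromere end of the rod, was at 34.4, 35.6, 39.9 and 33.4 FPKM. NDC80, also named HEC1, was at 19.5, 17.9, 19.2 and 16.1 FPKM. All 3 had their lowest value in the MYC line with Dox. NUF2, the partner of NDC80 at the microtubule end, was at 31.3, 33.5, 31.9 and 32.2 FPKM and was not lower.

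The log2 change in the MYC line was -0.42 ± 0.061 for SPC24, -0.26 ± 0.046 for SPC25, -0.26 ± 0.053 for NDC80 and 0.013 ± 0.04 for NUF2. In the vector line it was 0.16 ± 0.057, 0.049 ± 0.049, -0.13 ± 0.053 and 0.098 ± 0.042, so SPC24 was higher with Dox there and NDC80 was lower in both lines. The sign for NUF2 turned, to -0.035, with libraries rescaled to the same sum. SPC24 relative to NUF2 was 0.458, 0.479, 0.445 and 0.330 in the 4 libraries, lowest in the MYC line with Dox. For SPC25 the library that stood apart was the MYC line without Dox, which was the highest, and with Dox the level was just below those of both vector libraries.

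CENPA, the histone H3 variant that marks the centromere, was at 28.8, 28.6, 28.7 and 30.2 FPKM. CENPE, the kinesin that carries chromosomes to the spindle equator, was at 2.46, 2.32, 2.74 and 2.52 FPKM. CENPF, a large protein of the outer kinetochore, was at 11.1, 11.5, 11.6 and 10.9 FPKM. None of the 3 passed the smaller threshold in either line, where 61.7% of all genes stayed within it in the MYC line and 95.9% in the vector line. Their log2 changes in the MYC line were 0.075 ± 0.05, -0.11 ± 0.068 and -0.091 ± 0.03. Of the exon bases of CENPA, 7.08% are shared with SLC35F6 on the same strand.

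All 7 motor and spindle assembly genes stayed within the smaller threshold in both lines. Of all genes tested, 61.7% did so in the MYC line and 95.9% in the vector line. The median change of the 7 genes was -0.027 in the MYC line and 0.050 in the vector line. KIF11, the kinesin that pushes the spindle poles apart, was at 9.12, 9.44, 9.27 and 8.90 FPKM. KIF23, a kinesin of the central spindle, was at 17.3, 16.8, 19.3 and 19.5 FPKM, and KIF20A, another kinesin of cytokinesis, at 9.28, 10.2, 11.02 and 10.8 FPKM. KIF2C, also named MCAK, which takes microtubule ends apart, was at 38.01, 39.6, 41.4 and 41.7 FPKM. Among these 4 kinesins the log2 change in the MYC line stayed between -0.058 ± 0.048 for KIF11 and 0.010 ± 0.038 for KIF23, and the sign of KIF23 and KIF2C depended on the scaling.

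TPX2, which activates AURKA on the spindle, was at 43.4, 45.3, 45.6 and 46.9 FPKM. PRC1, which bundles microtubules of the central spindle, was at 41.4, 40.5, 46.3 and 41.2 FPKM, and ANLN, anillin of the contractile ring, at 17.3, 16.8, 18.1 and 15.6 FPKM. For PRC1 and ANLN the highest library was the MYC line without Dox, and with Dox the log2 change was -0.17 ± 0.028 and -0.22 ± 0.036. Of the exon bases of PRC1, 57.6% are shared with another annotated gene on the same strand, so its value is uncertain.

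The anaphase genes held the one gene that was past the smaller threshold in both lines. CDC20, on chromosome 1 (43824652 to 43828874), was at 94.5, 121, 99.6 and 143 FPKM. The 2 libraries with Dox were the 2 highest, and the libraries without Dox lay close together. The log2 change was 0.52 ± 0.023 in the MYC line and 0.35 ± 0.025 in the vector line, so the difference between the lines was 0.17 ± 0.034. MAD2L1 relative to CDC20 was 0.612 and 0.456 in the vector line without and with Dox, and 0.642 and 0.647 in the MYC line.

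PTTG1, securin, was at 578, 646, 559.9 and 623 FPKM, higher with Dox by nearly the same log2 change in both lines, 0.15 ± 0.016 in the MYC line and 0.16 ± 0.016 in the vector line. Its near copies PTTG2 and PTTG3P were listed at or close to 0 FPKM in all 4 libraries. UBE2C, the ubiquitin-conjugating enzyme of the APC/C, was at 137, 141, 140.3 and 141 FPKM, nearly the same in the 4 libraries. ESPL1 was at 4.83, 5.26, 5.21 and 5.30 FPKM. The log2 changes of UBE2C and ESPL1 in the MYC line were 0.0069 ± 0.031 and 0.023 ± 0.054, and both turned negative with libraries rescaled to the same sum.

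The 2 transcription factors had unlike values. MYBL2, which codes for B-MYB, was at 36.7, 36.2, 38.2 and 47.5 FPKM, highest in the MYC line with Dox. FOXM1, the forkhead factor that drives many of these genes in G2, was at 25.6, 25.3, 28.6 and 27.4 FPKM, higher in the MYC line with and without Dox. The log2 change in the MYC line was 0.31 ± 0.03 for MYBL2 and -0.059 ± 0.032 for FOXM1, against -0.023 ± 0.034 and -0.016 ± 0.035 in the vector line. Of the exon bases of FOXM1, 15.9% are shared with ITFG2 on the opposite strand.

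TOP2A and MKI67, commonly read as proliferation markers, were lower with Dox in the MYC line under each of the 4 scalings. TOP2A, the topoisomerase that untangles sister chromatids, was at 20.7, 20.7, 23.8 and 20.4 FPKM. MKI67, the Ki-67 antigen that coats mitotic chromosomes, was at 8.04, 8.39, 8.23 and 7.24 FPKM. For TOP2A the MYC line without Dox was the one that stood apart, above the other 3, while for MKI67 the MYC line with Dox was the lowest. The log2 changes in the MYC line were -0.23 ± 0.029 and -0.18 ± 0.032, and in the vector line -0.0024 ± 0.031 and 0.061 ± 0.033.

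Without Dox, the 40 genes differed little between the lines. The MYC line was higher for 34 of 40 genes, where it was for 59.5% of all genes tested, but 0 of 40 genes differed by more than 0.32 on the log2 scale, where 3.61% of all genes did. The median log2 difference was 0.072 for the 40 genes and 0.024 for all genes. The count depended on the scaling, with 37, 30 and 34 genes higher after rescaling to the same sum, by the median ratio and by the upper quartile, against 67.1%, 48.2% and 53.5% of all genes. The largest differences were those of BUB1B (0.26), KIF20A (0.25) and CCNA2 (0.23).

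Between the lines with Dox, 2 of 40 genes, MAD2L1 and BUB1B, were more than 1.5-fold higher in the MYC line, where 6.5% of all genes tested were. SPC24 was more than 1.5-fold lower, 1 of 40 where 8.62% were. The log2 difference was 0.75 for MAD2L1, 0.66 for BUB1B and -0.59 for SPC24. This comparison holds both the difference between the untreated lines and the Dox changes of both lines, and the median over the 40 genes was 0.10 against -0.0066 over all genes.

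Median changes with and without each promoter element were compared among the 33 genes with a window, as a description. The median log2 change in the MYC line was 0.017 for the 18 genes with a CHR element and 0.013 for those without. It was 0.031 with a CCAAT box and 0.0087 without, and 0.088 for the 6 genes with an E-box and 0.013 for those without. Those 6 were split, with PLK1, MYBL2 and CCNB1 at 0.48, 0.31 and 0.27 and CENPF, CENPE and ANLN at -0.091, -0.11 and -0.22. Over all tested genes with a window, the medians were -0.044 with a CHR element and -0.022 without. They were -0.042 with a CCAAT box and -0.013 without, and 0.0038 with an E-box and -0.030 without. Genes with the same elements had unlike changes. Of those with CHR and CCAAT, CDC20 was at 0.52 and CDK1 and CDC25B at 0.038 and -0.052. Of those with CCAAT boxes and no CHR element, MAD2L1 had the highest change of the 40 (0.53) and SPC24 the lowest (-0.42).

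Other mitosis genes, in lists that do not share genes with the 40, were also examined in the MYC line. The 103 genes tested in these lists include 11 of the DREAM and MuvB complex, which regulates transcription, and leave out the S phase genes. Over these 103 the median log2 change was -0.0052, with 1 gene past 1.5-fold upwards and 2 downwards. The shares of all genes tested past 1.5-fold were 5.9% upwards and 8.85% downwards. Among 27 other spindle and cytokinesis genes the median was -0.058, and 1 gene, CKAP2L, was past 1.5-fold, at 6.997, 6.54, 7.32 and 4.52 FPKM. FAM83D, which brings a kinase to the spindle, had the highest change of that list, 0.37. Among 32 other kinetochore and checkpoint genes the median was -0.068. SKA3, of the complex that holds kinetochores on microtubule ends, was past 1.5-fold upwards at 7.56, 9.63, 7.85 and 12.2 FPKM, and was also higher with Dox in the vector line, by 0.35. CENPI, of the inner kinetochore, was past 1.5-fold downwards at 2.72, 2.69, 2.95 and 1.72 FPKM. DSN1, of the MIS12 complex to which the SPC24 and SPC25 end of the rod binds, was at 37.2, 32.6, 37.6 and 27.0 FPKM, with a log2 change of -0.48.

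The 8 condensin genes had a median of -0.016, which turned to 0.0065 with median ratio scaling, between NCAPG2 at -0.14 and NCAPD3 at 0.18 among those of at least 5 FPKM. The 8 cohesin genes had a median of 0.043, which turned to -0.0036 with rescaling to the same sum, between RAD21 at -0.096 and PDS5A at 0.22 among those of at least 5 FPKM, and with PDS5B, below that level, at -0.21. The 17 genes of the APC/C and its regulators had a median of 0.094, with ANAPC1, the largest subunit, at 8.59, 9.08, 9.26 and 12.6 FPKM and ANAPC11, the RING subunit, at 142, 159, 134 and 113 FPKM. No gene of these 3 lists was past 1.5-fold in either direction, where 5.9% of all genes tested were upwards and 8.85% downwards.

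The 11 tested genes of the DREAM and MuvB complex, which acts on the CHR element, had a median of -0.092. TFDP1, the partner of the E2F factors, had the highest change, 0.51, at 37.8, 33.8, 38.6 and 55.0 FPKM, and LIN37, a MuvB subunit, the lowest, -0.33, at 15.2, 17.3, 16.0 and 12.7 FPKM. For comparison, 30 S phase replication genes had a median of 0.098, between GINS4 at -0.40 and POLE2 at 0.42. Of these 30 genes, 0 were past 1.5-fold, where 5.9% of all genes tested were upwards and 8.85% downwards. The 40 mitosis genes, with a median of 0.031, lay between these 2 medians, and the differences between the medians were not tested.

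**Figure D4:**
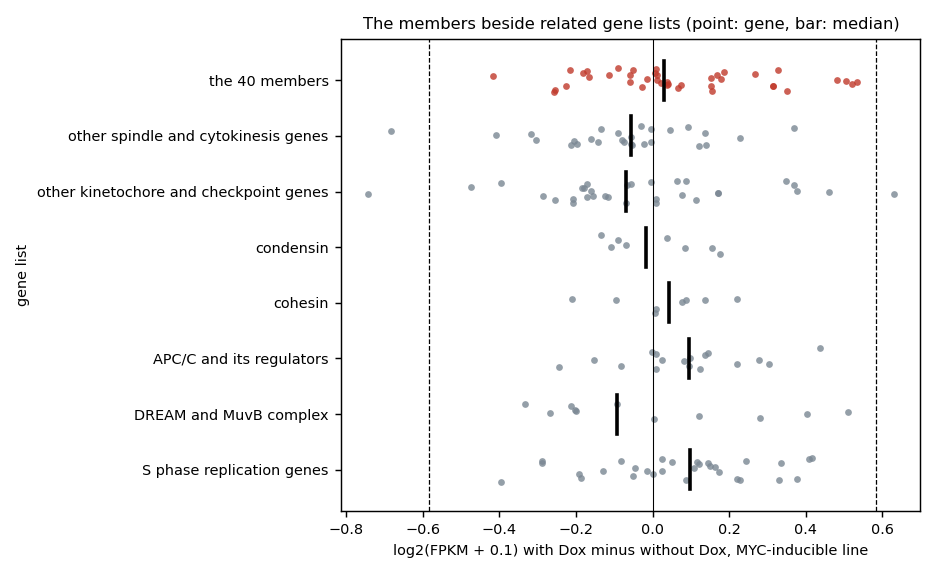
Log2 change with Dox in the MYC line (horizontal axis, log2 of FPKM + 0.1) of the 40 genes (red) and of the genes in 7 related lists (grey, vertical axis), 1 point per gene, with the median of each list as a black bar. Dashed lines mark 1.5-fold, and the medians lie between -0.092 for the DREAM and MuvB complex and 0.098 for the S phase replication genes.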

How the data were processed

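RNA-seq of 4 SK-MEL-28 libraries, 1 per condition, was analysed from the FPKM values per gene symbol that the authors deposited. The submitters' processing notes name TopHat2 2.0.14, Cufflinks, hg19 and GRCh37. The gene annotation behind the values and the use of strand are not given in the sources used here. Transcript models decide how fragments of overlapping genes are divided, so members that share over 5% of their exon bases with another gene are named with that share.

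The table had 27032 rows. Rows of the same symbol were summed, for 609 symbols and for none of the 40 members, and 1 unnamed row was dropped. Groups came from the sample titles. FPKM is not a count, which bars count models, and with 1 library per condition no test and no p-value is given. Changes are log2(FPKM + 0.1) of one library minus that of another, over the 11147 genes that averaged 1 FPKM or more, with thresholds at 1.5-fold and at a smaller log2 change of 0.32. On this scale the changes of low genes are understated.

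Depth was estimated from the low values. Of 2028 genes under 0.2 FPKM, 49.0% had values that were whole multiples of 1 step (multiples up to 12, tolerance 1.2%). In 95 of these, which have just 1 annotated transcript, of 1500 bases or longer, the step put the depth of the untreated vector line at a median of 38900000 fragments (quartiles 32600000 and 40800000), and the relative depth of the other libraries was 0.897 to 1.08. Approximate fragments per gene and the counting errors follow from this depth and the transcript length. They cover fragment sampling only. The lengths behind the FPKM values are not known, so the errors of single genes may be too small or too large.

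Gene positions, lengths and exon overlaps came from GENCODE release 44 on GRCh37. Promoter windows came from the RefSeq table (GRCh38.p14), and printed sequences were placed in GRCh37 by exact match. The members and lists were chosen with earlier results of these data known. The named genes are all 40 members and, from each related list, the genes with the highest and lowest change in the MYC-inducible line (MYC line) at a mean of at least 5 FPKM. CASC5 and E2F5, in the lists, were under the filter. Genes past 1.5-fold are named as well. Promoters were printed for the 3 members with the highest mean among those with CHR and CCAAT, and that of SPC24 was added after its value was seen. The alternatives were other pseudocounts, filters, scalings and thresholds, and the Dox library of the vector line as reference. Leaving out members overlapped in more than 5% of their exon bases was chosen after seeing the data. Calculations used Python 3.11.15 with pandas 2.3.3, numpy 2.4.6 and, for plots, matplotlib 3.10.9, and were tested on simulated data.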

Additional observations from a re-analysis of the deposited data

Results flagged for a closer look

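For 4 of the 40 genes the log2 change with Dox had opposite signs in the 2 lines, with each 95% counting interval clear of 0, a share close to the 10.4% of the 10082 genes with a counting error that met the same rule. With 1 library per condition the difference was not tested. MAD2L1 was higher with Dox in the MYC line and lower in the vector line, and the change in the former minus that in the latter was 0.61. For CCNB1 the same difference was 0.32, and for BUB3 it was 0.24, both with the higher value in the MYC line. The vector line interval of CCNB1 ended at -0.0012, so its place among these genes rests on an approximate depth. SPC24 was lower with Dox in the MYC line and higher in the vector line, with a difference of -0.58.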

How the results depend on the processing

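No paired analysis was possible because there is just 1 library per condition, and for the same reason no library was left out. Of 82 recalculated summary values, 5 moved beyond 1.5 times the count or beyond the robust SD of all genes in the vector line, 0.107. At the smaller threshold instead of 1.5-fold the members called in the MYC line went from 0 to 6 higher and 1 lower, and in the vector line to 1 higher. With the Dox library of the vector line as reference, 2 were past 1.5-fold upwards and 1 downwards. Of 240 recalculated changes of single members 20 moved beyond that SD, all with that reference, and 20 changed sign. A scaling gave 12 of these sign changes, for genes near 0 such as CDK1, TPX2 and UBE2C. The others came with the Dox library of the vector line as reference. Among them were PRC1 (-0.17 to 0.025), PTTG1 (0.15 to -0.052) and CENPE (-0.11 to 0.12). Leaving out the members with over 5% of exon bases overlapped, an alternative added after the data were seen, left its 5 summary values in place. The counting errors at this depth leave out the spread between cultures, which 1 library per condition cannot give.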
